A study of Mus musculus with 6 samples.

Results

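The interleukin-6 (IL-6) family cytokines and receptors were taken as 10 genes matched by symbol in the deposited expression table, which lists 28789 genes. The 5 ligand genes were Il6, Il11, Lif, Clcf1 and Ctf1, and the 5 receptor genes were Il6st, Lifr, Osmr, Il6ra and Il11ra1. Poly(A) RNA was sequenced from TCMK1 cells, an established mouse line labelled as renal tubular epithelial cells, in 3 libraries of YOD1 overexpression with Ang II and 3 control libraries with Ang II. Ang II, the pressor peptide angiotensin II, was thus given to both groups, so its own effect is not measured here. YOD1 is a deubiquitinase, and the series was made to find pathways that it regulates under Ang II. How YOD1 was introduced, what the control cells carried, and the dose and time of Ang II are not given in the sources used here. Nothing in the labels says that replicates were separate cultures, so the p-values below speak to library-to-library spread alone, which may be technical.

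IL-6 family cytokines are secreted four-helix proteins that signal through the shared receptor chain gp130, the product of Il6st. IL-6 and IL-11 first bind an alpha chain of their own (the products of Il6ra and Il11ra1) and then assemble gp130. LIF, cardiotrophin-1 (Ctf1) and cardiotrophin-like cytokine (Clcf1) use gp130 together with the LIF receptor, and oncostatin M uses gp130 with the LIF receptor or with its own chain, the product of Osmr. The receptors have no kinase domain and activate bound JAK kinases, which phosphorylate STAT3, and in kidney tubules this pathway is known for acute-phase, injury and fibrosis responses.

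RefSeq promoter windows (GRCm38.p6) were matched for 9 of the 10 members, all but Clcf1. They were searched over the 250 bases before each annotated start, on both strands, for the letters of sites that inducible cytokine genes are known to carry. The letters were TGANTCA for AP-1, TTGCNNAA for C/EBP, TTCNNNGAA for STAT factors and GCGTGGGCG for EGR factors. For NF-kB they were GGGA, any base (written N above) and TTTCC, 10 letters in all. The windows of Il6, Lif and Il11 are shown because they alone among the members held the AP-1 letters, and that of Il6st as the receptor of highest level. Il6st held none of the 5 motifs, as was true of all 6 members with a window other than Il6, Lif and Il11. Capitals mark the matches, and every window is written 5′ to 3′ on the strand of its gene.
Il6, chr5:30012864-30013113, plus strand: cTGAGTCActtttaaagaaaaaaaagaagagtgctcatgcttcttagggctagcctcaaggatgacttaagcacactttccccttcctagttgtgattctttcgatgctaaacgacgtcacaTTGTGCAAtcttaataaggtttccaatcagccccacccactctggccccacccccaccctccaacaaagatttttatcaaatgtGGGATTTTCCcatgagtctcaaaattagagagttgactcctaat
Lif, chr11:4257318-4257567, plus strand: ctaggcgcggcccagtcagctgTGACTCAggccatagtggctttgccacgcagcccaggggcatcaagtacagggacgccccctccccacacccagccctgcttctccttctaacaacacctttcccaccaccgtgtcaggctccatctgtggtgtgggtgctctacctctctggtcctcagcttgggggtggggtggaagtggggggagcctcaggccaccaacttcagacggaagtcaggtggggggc
Il11, chr7:4778142-4778391, minus strand, the one of its 2 windows with the AP-1 letters: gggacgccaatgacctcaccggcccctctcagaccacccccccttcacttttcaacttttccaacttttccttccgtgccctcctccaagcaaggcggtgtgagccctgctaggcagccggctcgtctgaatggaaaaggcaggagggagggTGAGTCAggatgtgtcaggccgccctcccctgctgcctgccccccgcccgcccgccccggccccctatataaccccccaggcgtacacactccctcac
Il6st, chr13:112463820-112464069, plus strand: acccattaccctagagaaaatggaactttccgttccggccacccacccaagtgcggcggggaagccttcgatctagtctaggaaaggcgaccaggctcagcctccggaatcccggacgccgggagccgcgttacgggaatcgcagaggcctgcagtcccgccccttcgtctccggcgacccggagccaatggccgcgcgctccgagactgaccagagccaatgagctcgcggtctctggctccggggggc

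The AP-1 letters began 249 bases before the start in Il6, 228 in Lif and 98 in Il11. They occurred in 6.75% of all 32851 promoter windows of the same length. Il6 also held the NF-kB letters, 44 bases before its start, and the C/EBP letters, 128 bases before it, which 0.356% and 9.56% of all windows held. The STAT letters were in 7.02% of all windows and the EGR letters in 0.536%, and neither was in a window of a member. The motifs shown do not overlap one another. A match describes letters in these windows and is not a site of binding.

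The libraries were checked before the members were read. Yod1 stood at 1.73, 7.56 and 1.86 FPKM (fragments scaled to transcript length and library size) in YOD1 libraries 1, 2 and 3, against 0.842, 0.757 and 0.684 FPKM in control libraries 1, 2 and 3. The groups did not overlap, and the log2 fold change was 1.21, short of the threshold (limma, adjusted p = 0.141). It was 0.67 without YOD1 library 2 and 1.81 with a pseudocount of 0.1 FPKM, and the authors' deposited table marks Yod1 as significant with q = 0.0310. Of the tubular markers, the keratin gene Krt18 stood at 595 to 820 FPKM in YOD1 and 482 to 587 FPKM in control libraries. The test filter was reached by 12 of 15 tubular and by 5 of 9 fibroblast markers. These values alone do not settle the labelled cell type. Lhx1, Cubn and Slc34a1, the last a proximal tubule phosphate carrier, were at no more than 0.116 FPKM in any library. YOD1 library 3 lay farthest from the others on the first principal component, which held 47.4% of the variance. Of the leukocyte markers, Ptprc stayed under 0.1 FPKM in every library, while Lyz2, Cd68, Cd14 and Csf1r were tested. The summed level of the 9 leukocyte markers in the table was 43.2 to 54.5 FPKM in YOD1 and 37.7 to 46.4 FPKM in control libraries. The 9 fibroblast markers summed to 10.4 to 17.8 FPKM in YOD1 and 15.7 to 18.5 FPKM in control libraries, and 6 endothelial markers to 1.52 to 2.42 FPKM in YOD1 and 0.847 to 1.53 FPKM in control libraries. The part of these lists in the results was not tested. Ribosomal RNA genes held 2.37% to 4.08% of the FPKM of YOD1 and 0.553% to 0.94% of that of control libraries. Read depth cannot be read from FPKM, so low values carry no counting interval.

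FPKM is scaled to transcript length, so the 10 genes can be ranked by level. Over all 6 libraries Clcf1 (mean 12.0 FPKM) and Il6st (11.5 FPKM) came first, followed by Lif (8.18 FPKM) and Il11ra1 (5.75 FPKM). Each of these neighbours had overlapping ranges, so their order is not fixed by these libraries. Ctf1 (2.12 FPKM) lay below Il11ra1 in 6 of 6 libraries, and Il6ra (0.870 FPKM) lay below Ctf1 in 6 of 6, with ranges that did not overlap. Osmr (0.205 FPKM), Il11 (0.159 FPKM) and Lifr (0.123 FPKM) were low and overlapped one another. Il6 was last at 0.0458 FPKM and was listed at 0 in YOD1 library 1 and control library 1. The cells thus carried transcripts of the shared chain gp130 at 27.4 to 78.7 times the FPKM of Osmr or Lifr in YOD1 libraries and at 53.2 to 199.97 times in control libraries.

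**Figure D1:**
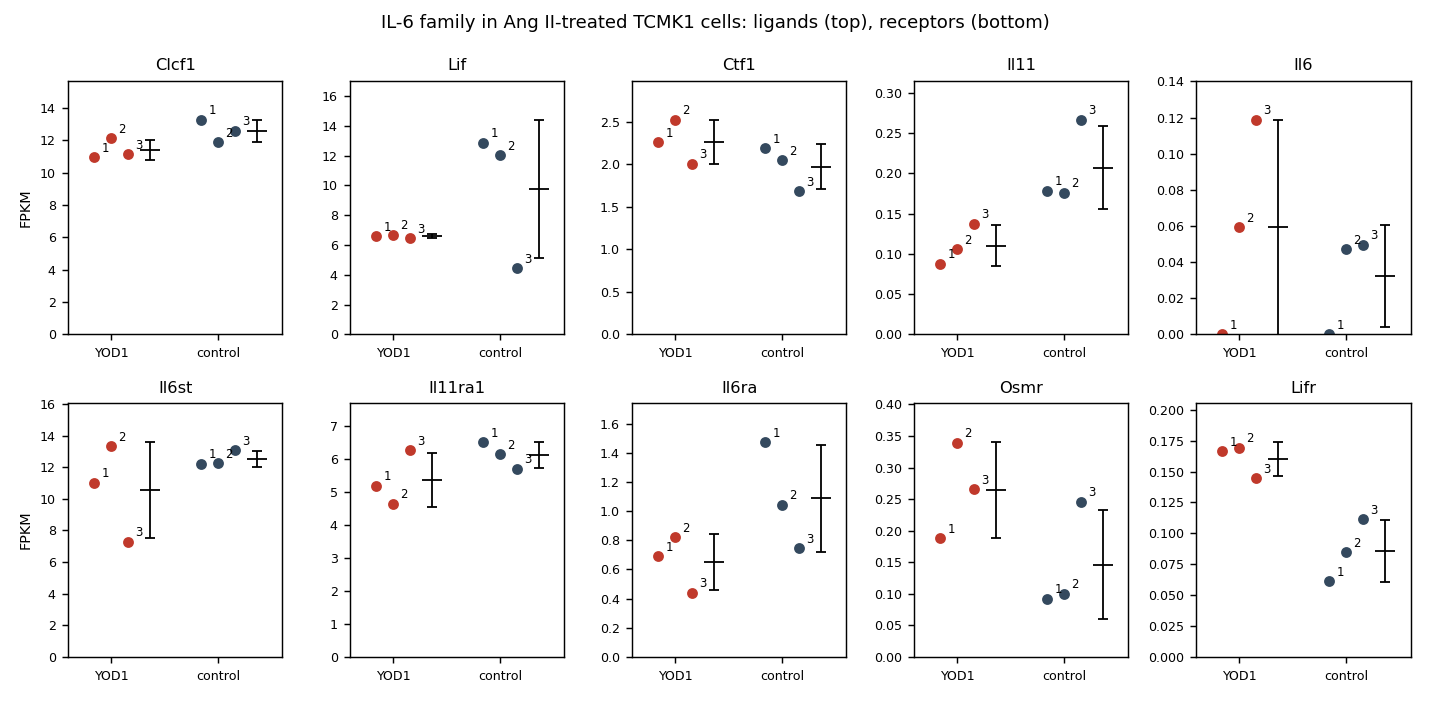
FPKM of the 10 family members in each library, with a separate linear vertical scale from 0 for each gene, ligands in the upper row and receptors in the lower. Red points are YOD1 and dark points control libraries, numbered by replicate, and the black bar beside each group is the mean with 1 SD (n = 3). Lif is tight in the YOD1 group and split in the control group, where library 3 lies at 4.46 FPKM, and Il11 and Lifr are the genes whose groups do not overlap.

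Genes entered the test when 3 or more libraries held 1 FPKM or more, which 5 of the 10 members did, Clcf1, Lif, Ctf1, Il6st and Il11ra1. None of the 5 passed limma at an adjusted p of 0.05, and none had an unadjusted p under 0.05, while 0.479% and 20.9% of the 11483 tested genes did. In each of the 5 the groups overlapped, whereas 28.9% of tested genes had groups apart from each other. Of the 5, 4 had a log2 fold change (YOD1 over control, of FPKM + 1) below 0, against 63.6% of tested genes, and their median was -0.17 against -0.10 over all tested genes. A p that misses the threshold does not show equal levels, and the intervals below give the sizes that these libraries allow.

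Clcf1, whose product acts on gp130 and the LIF receptor, was the ligand of highest level. It stood at 10.9, 12.1 and 11.1 FPKM in YOD1 libraries 1, 2 and 3, against 13.3, 11.9 and 12.6 FPKM in control libraries 1, 2 and 3. The groups overlapped only through YOD1 library 2 and control library 2. The log2 fold change was -0.13 with a 95% interval from -0.42 to 0.16 (limma, adjusted p = 0.566), and -0.04 under median-ratio scaling and -0.08 after correction for transcript length. In the GENCODE M21 annotation a longer gene on the same strand overlaps Clcf1 and shares 6.77% of its stretches of 50 bases, so some of its fragments are uncertain.

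Ctf1, the gene of cardiotrophin-1, which also signals through gp130 and the LIF receptor, was lower in level and steady. Its values were 2.26, 2.53 and 2.01 FPKM in YOD1 libraries 1, 2 and 3, against 2.19, 2.05 and 1.68 FPKM in control libraries 1, 2 and 3. The groups overlapped, and the log2 fold change was 0.13 with a 95% interval from -0.21 to 0.48 (limma, adjusted p = 0.623). It was 0.06 without control library 3 and 0.08 without YOD1 library 2. After each library was corrected for the trend of its values over transcript length the log2 fold change was -0.0086. Its neighbour Ctf2, which overlaps it on the opposite strand in GENCODE M21, was at 0 in 4 of 6 libraries and at most at 0.217 FPKM.

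Lif, the gene of leukemia inhibitory factor, had the widest interval of the tested members. It stood at 6.59, 6.70 and 6.45 FPKM in YOD1 libraries 1, 2 and 3, against 12.9, 12.0 and 4.46 FPKM in control libraries 1, 2 and 3. The YOD1 values lay close together, below control libraries 1 and 2 and above control library 3. Over the 6 libraries the log2 fold change was -0.39 with a 95% interval from -1.09 to 0.30 (limma, adjusted p = 0.470). Without control library 3, the one lowest in Lif, it was -0.83 with an interval from -1.17 to -0.48 and passed the test (limma, adjusted p = 0.039). That fit called 145 higher and 97 lower of 11483 tested genes, against 51 and 4 over all 6 libraries. Without control library 1 or 2 the log2 fold change of Lif was -0.15 or -0.20. The direction stayed below 0 in each of these fits, and its size rested on control library 3.

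Of tested genes 0.766% (88 of 11483) stood in control library 3 at under 0.5 of the lower value of control libraries 1 and 2, and Lif was the only member among them. The tested gene closest to Lif in pattern was Ier2, an immediate early gene, with a root mean square difference of 0.036 in log2(FPKM + 1) over the 6 libraries after each gene was centred. Ier2 stood at 39.7, 42.6 and 38.5 FPKM in YOD1 libraries, against 76.1, 69.0 and 29.6 FPKM in control libraries 1, 2 and 3. Arl4d, a small GTPase gene, and Dusp5, a nuclear phosphatase that inactivates ERK, came next with differences of 0.124 and 0.128. The count and the like genes were looked for after the values of Lif had been seen, so that Lif met the cutoff was fixed beforehand.

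Fos, an AP-1 subunit, stood at 1.52, 1.77 and 1.33 FPKM in YOD1 libraries, against 5.62, 6.13 and 1.75 FPKM in control libraries 1, 2 and 3. Egr1, a growth-factor-induced transcription factor, stood at 11.5, 12.5 and 11.9 FPKM in YOD1 libraries, against 67.7, 71.1 and 15.4 FPKM in control libraries. Control library 3 thus lay near the YOD1 libraries for both. By the same measure Fos was the tested gene ranked 256 and Egr1 the one ranked 10870 of 11482 in likeness to Lif, since Egr1 spans a wider range. Neither passed limma over all 6 libraries (adjusted p = 0.149 and 0.116), and both were called lower without control library 3. Other AP-1 genes, looked at after their values were seen, were mixed. Fosl1 (29.3, 33.7 and 14.2 FPKM in control libraries 1, 2 and 3) and Fosl2 (7.64, 7.18 and 3.92 FPKM) had the split. Junb (25.8, 21.3 and 22.3 FPKM) and Jund (25.3, 23.0 and 24.5 FPKM) did not, and Jun and Atf3 were highest in control library 1. The cause of the split among the control libraries was not tested.

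**Figure D2:**
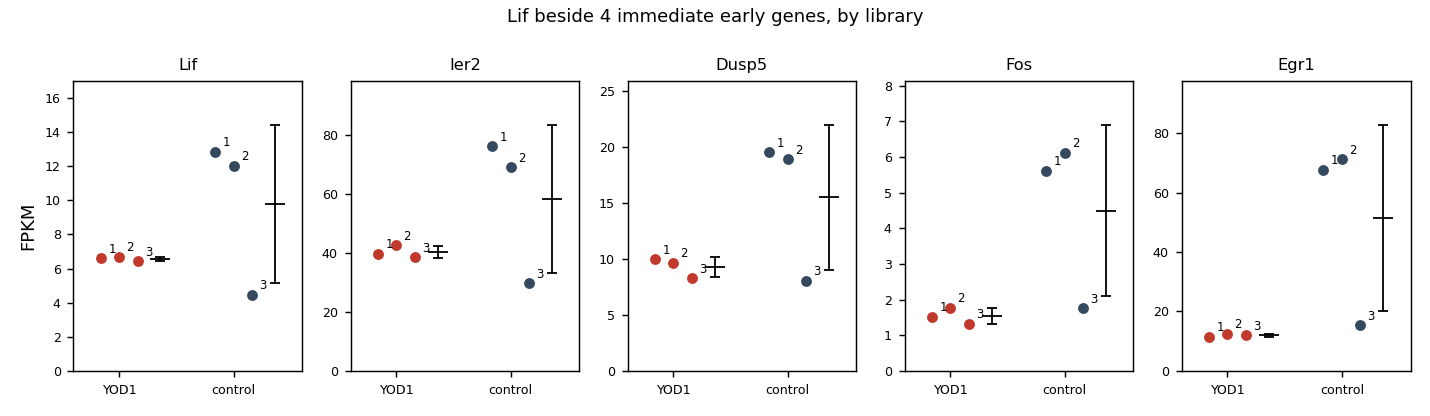
FPKM of Lif beside the immediate early genes Ier2, Dusp5, Fos and Egr1 in each library, each on its own linear scale from 0. These genes were picked after their values were seen, and Junb and Jund, not shown, lack the split. Red points are YOD1 and dark points control libraries, numbered by replicate, with the mean and 1 SD beside them (n = 3). In each panel control libraries 1 and 2 stand together at the top and control library 3 lies near the YOD1 libraries.

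Il11 and Il6 were too low to be tested. Il11, a cytokine that has been studied as a driver of fibrosis, stood at 0.0877, 0.106 and 0.137 FPKM in YOD1 libraries 1, 2 and 3, against 0.179, 0.176 and 0.267 FPKM in control libraries 1, 2 and 3. The groups did not overlap, and the ratio of means was 0.532. Il6 stood at 0, 0.0592 and 0.119 FPKM in YOD1 libraries, against 0, 0.0473 and 0.0496 FPKM in control libraries, so it was at or near the lower end of detection in both groups. Among genes below the filter, 10.5% had groups that did not overlap, and Il11 and Lifr were the members of which this was true.

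Il6st, the gene of gp130, was the receptor chain of highest level. It stood at 11.01, 13.3 and 7.30 FPKM in YOD1 libraries 1, 2 and 3, against 12.2, 12.3 and 13.1 FPKM in control libraries 1, 2 and 3. YOD1 library 2 was above all controls and YOD1 library 3 was the lowest of the 6, while the controls lay close together. The log2 fold change was -0.26 with a 95% interval from -0.70 to 0.18 (limma, adjusted p = 0.443). Without YOD1 library 3 it was -0.04, and without YOD1 library 2 it was -0.44.

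The longest annotated transcript of Il6st has 8678 bases, which puts the gene in the top length decile of tested genes. In YOD1 library 3 the genes of that decile had a median deviation of -0.418 from their own means over the libraries on the log2 scale, and Il6st deviated by -0.572. In YOD1 library 2 the median deviation of the decile was 0.0754 and that of Il6st was 0.216. After correction for transcript length the log2 fold change of Il6st was -0.05 with an interval from -0.39 to 0.29 (limma, adjusted p = 0.875). The tested genes closest to it in pattern were Fam76b, Dlg1, a scaffold of cell polarity, and Ap1s3, an adaptor subunit of vesicle traffic, with root mean square differences of 0.0147, 0.0259 and 0.0293. For Clcf1 they were Calhm2, Copg1, a coat subunit of Golgi vesicles, and Ttc38, with differences of 0.0303 to 0.0378.

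**Figure D3:**
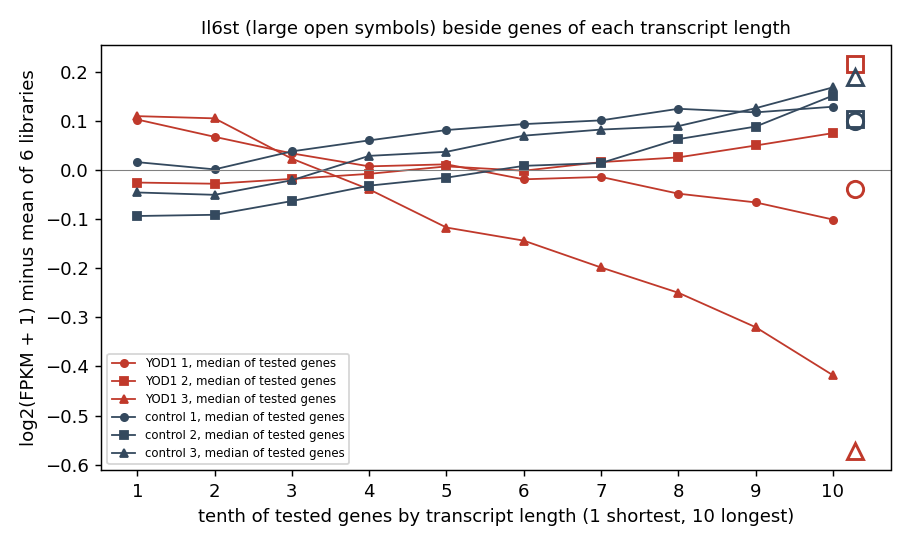
Level of tested genes in each library minus their mean over the 6 libraries, on the log2(FPKM + 1) scale, against the decile of transcript length, shortest at the left. Lines with small symbols join the medians of each decile, large open symbols mark Il6st beside the top decile, red is YOD1 and dark is control, and circle, square and triangle are replicates 1, 2 and 3. YOD1 library 3 slopes down to -0.418 in the top decile, and Il6st in that library lies at -0.572.

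Il11ra1, the alpha chain for IL-11, stood at 5.20, 4.66 and 6.28 FPKM in YOD1 libraries 1, 2 and 3, against 6.51, 6.15 and 5.72 FPKM in control libraries 1, 2 and 3. The groups overlapped, with YOD1 library 3 above control libraries 2 and 3. The log2 fold change was -0.17 with a 95% interval from -0.52 to 0.18 (limma, adjusted p = 0.547). It was -0.08 without YOD1 library 2 and also under median-ratio scaling, and -0.27 without YOD1 library 3. Its transcripts share 46.3% of their stretches of 50 bases with Gm13305 and 15.8% with Il11ra2, so its value is uncertain where fragments were split. Il11ra2 was listed at no more than 0.371 FPKM in any library, and the level of Gm13305 is not given here. Il11ra1 also overlaps several genes in the annotation, Galt on the same strand among them, at 10.8 to 16.6 FPKM.

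Il6ra, the alpha chain that gives a cell its response to free IL-6, reached 1 FPKM in 2 libraries only and was not tested. It stood at 0.693, 0.821 and 0.441 FPKM in YOD1 libraries 1, 2 and 3, against 1.47, 1.05 and 0.747 FPKM in control libraries 1, 2 and 3. The groups overlapped through control library 3 alone, which lay below YOD1 library 2, and the ratio of means was 0.598. Its longest transcript, of 8639 bases, falls in the same length decile as that of Il6st. The longest transcript of Lifr, of 9655 bases, falls there too, and Lifr was higher in YOD1 libraries. Neither Il6ra nor Lifr was in the fit corrected for transcript length, so the part of length in their values was not tested.

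Lifr and Osmr, the chains that pair with gp130, were the receptors of lowest level. Lifr stood at 0.167, 0.169 and 0.145 FPKM in YOD1 libraries 1, 2 and 3, against 0.0611, 0.0847 and 0.111 FPKM in control libraries 1, 2 and 3. All YOD1 values were above all control values, with a ratio of means of 1.87. Osmr stood at 0.188, 0.340 and 0.266 FPKM in YOD1 libraries, against 0.0922, 0.1004 and 0.246 FPKM in control libraries. Control library 3 lay within the YOD1 range, and the ratio of means was 1.81. With every gene in the fit, whatever its level, Lifr had an unadjusted p of 0.0145 and Il11 one of 0.0286, and the limma adjusted p was 0.313 and 0.365. The authors' deposited table gives Lifr q = 0.291, Il6ra q = 0.308 and Osmr q = 0.315, and it marks none of the 10 members as significant while it marks 0.993% of all genes. In bulk RNA, fewer cells with a transcript and less of it per cell cannot be told apart.

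**Figure D4:**
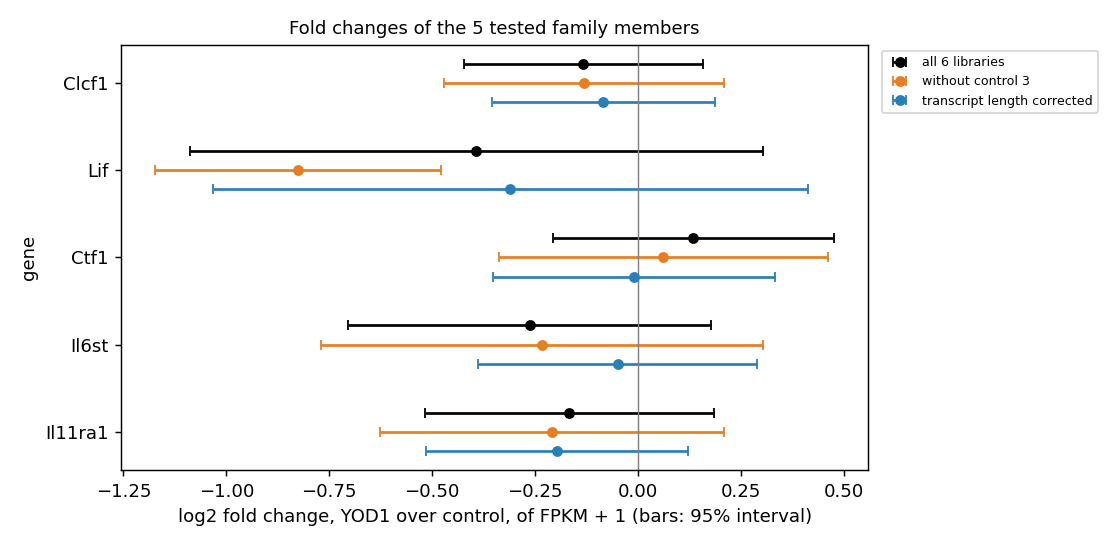
Log2 fold change of FPKM + 1, YOD1 over control, of the 5 tested members, with 95% intervals from limma. Black is the fit over all 6 libraries, orange the fit without control library 3 and blue the fit after correction for transcript length. The interval of Lif without control library 3, from -1.17 to -0.48, is the one that does not reach 0.

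The make-up of the ligand transcripts can be read as shares of their summed FPKM, which was 19.9, 21.5 and 19.8 in YOD1 libraries 1, 2 and 3 and 28.5, 26.2 and 19.1 in control libraries 1, 2 and 3. Clcf1 held 55.1% to 56.3% of the sum in YOD1 libraries, against 46.6%, 45.4% and 66.1% in control libraries 1, 2 and 3. Lif held 31.1% to 33.1% in YOD1 libraries, against 45.1%, 45.9% and 23.4% in control libraries. Ctf1 held 10.1% to 11.7% in YOD1 libraries and 7.69% to 8.83% in control libraries, without overlap. The FPKM of Ctf1 itself overlapped between the groups. Its share also depends on the summed FPKM, which was highest in control libraries 1 and 2. The YOD1 libraries were alike in make-up, and the control libraries differed by control library 3. Among receptors Il6st held 50.6% to 69.0% of the summed FPKM in YOD1 and 60.0% to 65.7% in control libraries. The FPKM ratio of Il6st to Lifr was 50.5 to 78.7 in YOD1 and 117 to 199.97 in control libraries, without overlap. Lifr is low, so this ratio rests on few fragments.

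Other ligands and receptors of the family were scarce. Of 11 such genes 10 were in the table, 2 were tested and none passed limma. Cntfr, the membrane-anchored chain that binds CNTF and the Clcf1 product, stood at 2.04, 1.52 and 1.41 FPKM in YOD1 libraries 1, 2 and 3, against 0.862, 1.09 and 1.47 FPKM in control libraries 1, 2 and 3. The groups overlapped, and the fit put Cntfr at 0.31 on the log2 scale (limma, adjusted p = 0.302). For Il27ra, the IL-27 receptor chain, the log2 fold change was 0.04, with 0.925 as its limma adjusted p. Osm, the gene of oncostatin M, was at 0 in 4 of 6 libraries and at most at 0.0635 FPKM.

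Of the genes that carry or restrain the signal of gp130, 23 of 27 were tested and none passed limma in either direction. The fold change was below 0 in 19 of the 23, against 63.6% of all tested genes, with a list median of -0.34 against -0.10 over all tested genes. At an unadjusted p under 0.05 there were 12 lower and 0 higher genes, beside 1494 lower and 904 higher of the 11483 tested. The groups of 14 of the 23 were apart, against 28.9% of tested genes. The 4 of lowest p were Pias3, Sos1, Gab1 and Cish, with limma adjusted p from 0.0811 to 0.153. Pias3, an inhibitor of STAT3, stood at 13.1, 13.2 and 15.2 FPKM in YOD1 libraries, against 20.2, 24.4 and 20.9 FPKM in control libraries. Sos1, a Ras activator, stood at 1.66, 2.07 and 0.977 FPKM in YOD1 libraries, against 3.06, 3.03 and 3.05 FPKM in control libraries. Gab1, a docking protein, and Cish, a STAT-induced inhibitor, had log2 fold changes of -0.48 and -0.47. After correction for transcript length the list median was -0.22, and it was -0.25 without YOD1 library 3.

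Jak2, the kinase named in the title of the series, stood at 1.23, 1.301 and 0.890 FPKM in YOD1 libraries 1, 2 and 3, against 1.59, 1.16 and 2.39 FPKM in control libraries 1, 2 and 3. The groups overlapped (log2 fold change -0.32, limma adjusted p = 0.338). Single control libraries moved this value, to -0.15 without control library 3 and to -0.47 without control library 2 (limma, adjusted p = 0.672 and 0.397). Stat3, the main STAT of this pathway, stood at 6.93, 8.05 and 6.08 FPKM in YOD1 libraries, against 8.75, 10.1 and 9.88 FPKM in control libraries. It was lower in all 3 YOD1 libraries than in any control but did not pass (limma, adjusted p = 0.189). Socs3, the feedback inhibitor that binds gp130, stood at 8.29, 8.69 and 6.87 FPKM in YOD1 libraries, against 8.45, 9.30 and 6.89 FPKM in control libraries. Stat3 and Socs3 were picked for their place in the pathway after the values were seen.

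Response genes that STAT3 is known to drive had fold changes on both sides of 0. Of 31 genes 24 were tested, 2 passed higher and 0 lower in limma, where 0.444% and 0.0348% of tested genes passed. The fold change was above 0 in 13 and below 0 in 11, with a list median of 0.05 against -0.10 over all tested genes. At an unadjusted limma p under 0.05 there were 8 higher genes and 1 lower, beside 904 higher and 1494 lower of the 11483 tested. The groups of 8 of the 24 were apart, against 28.9% of tested genes. After correction for transcript length 11 of the 24 were above 0 and 13 below, with a list median of -0.03 against -0.09 over all tested genes. Saa3, which encodes an acute-phase apolipoprotein, rose to 72.6, 86.7 and 102 FPKM in YOD1 libraries, against 20.4, 22.1 and 17.0 FPKM in control libraries 1, 2 and 3. Cebpd, an acute-phase transcription factor, rose to 3.95, 6.22 and 3.37 FPKM in YOD1 libraries, against 0.739, 0.763 and 1.14 FPKM in control libraries. Their limma adjusted p was 0.00228 and 0.0168, and both were called again without control library 3, without YOD1 library 3 and after correction for transcript length. Neither was called when genes of every level were fitted together, where limma called 0 genes, with 1411 higher and 2016 lower at an unadjusted p under 0.05. Junb, an AP-1 subunit, and Rnd1, a small GTPase gene, had the next lowest p and did not pass (log2 fold change 0.94 and 0.62, limma adjusted p = 0.0753 and 0.0783). Without YOD1 library 3 Junb passed too, and without control library 3 Fos was called lower.

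**Figure D5:**
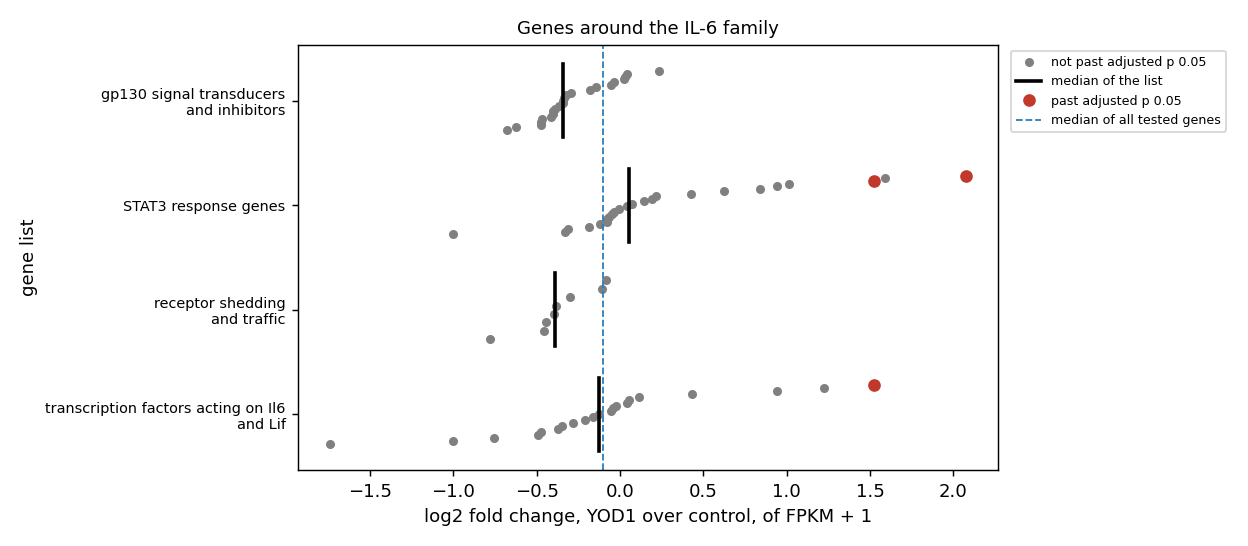
Log2 fold change of FPKM + 1, YOD1 over control, of the tested genes in 4 lists around the family, 1 point per gene. Black bars are list medians, the dashed line is the median of all tested genes at -0.10, and red points passed limma at an adjusted p of 0.05. Points of the gp130 signal list and of the shedding list lie mostly left of the dashed line, and the red points are Saa3 and Cebpd, which is in 2 lists.

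Genes of receptor shedding and traffic had 8 of 10 members tested, all with a fold change below 0 and none past limma. Of all tested genes 63.6% were below 0, and the list median was -0.39 against -0.10 over all of them. In this short list 3 of the 8 had an unadjusted p under 0.05, beside 20.9% of tested genes, and 3 had groups apart, a share near the 28.9% over all tested genes. Vps35, a core retromer subunit, stood at 4.32, 4.48 and 2.20 FPKM in YOD1 libraries 1, 2 and 3, against 8.16, 5.58 and 6.80 FPKM in control libraries 1, 2 and 3. Rab11a, a GTPase of recycling endosomes, and Frmd8, a binding partner of inactive rhomboid proteins, had log2 fold changes of -0.46 and -0.39. Adam10, a protease that sheds the IL-6 receptor, stood at 4.98, 5.95 and 2.67 FPKM in YOD1 libraries, against 6.48, 6.33 and 6.02 FPKM in control libraries. The limma adjusted p of these 4 lay between 0.132 and 0.285. YOD1 library 3 was lowest for Vps35 and Adam10, and without it the list median was -0.21.

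Transcription factors and RNA-binding regulators that act on the Il6 and Lif genes had 21 of 22 members tested, of which Cebpd alone passed limma, in the higher direction, where 0.444% of tested genes passed. The list median of -0.12 was near the -0.10 over all tested genes, and 14 members were below 0 and 7 above, a share near the 63.6% of all tested genes below 0. Jund, an AP-1 subunit, stood at 53.9, 100.04 and 35.9 FPKM in YOD1 libraries, against 25.3, 23.0 and 24.5 FPKM in control libraries 1, 2 and 3. It did not pass over all libraries (log2 fold change 1.22, limma adjusted p = 0.101) and passed without YOD1 library 3. Without control library 3 the genes called lower were Egr1, Fos and Zfp36, whose product speeds the decay of cytokine transcripts. Zfp36 stood at 2.50, 3.19 and 3.68 FPKM in YOD1 libraries, against 7.55, 9.26 and 2.79 FPKM in control libraries 1, 2 and 3. It was named for being called only without control library 3, so the nearness of that library to the YOD1 values follows from the choice.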

How the data were processed

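Poly(A) RNA of 6 TCMK1 samples was sequenced in paired ends, per the labels' protocols. The file the authors deposited lists FPKM for each gene in each library. Beside these stand the authors' ratio of group means (a fold), the log2 of that ratio, and columns of p-values and q-values, per the file headers. Tools named in the submitters' processing notes are HISAT2 2.0, StringTie 1.3.0 and Bowtie 0.12.2, and mm8 is the only build named there. The sources used here do not give which tool did which step or how the p-values were obtained. No per-sample column was left out. Library strand is not stated, so fragments of overlapping genes cannot be assigned with certainty.

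Values were transformed to log2(FPKM + 1), which understates the change of low genes. The 11483 genes that held 1 FPKM or more in 3 or more libraries entered a limma fit (version 3.58.1, R 4.3.3) with an intensity trend, two-sided, at a Benjamini-Hochberg adjusted p of 0.05 over all tested genes. The fit was checked on simulated data with independent noise per gene, which held neither the length trend nor the library differences of these data. With 3 libraries a group the smallest exact permutation p is 0.1, and such tests were left out. Named genes were all members, Yod1 and Jak2, up to 4 tested genes of lowest p per list, and the 3 genes nearest to the ligand and to the receptor of highest level. Names outside this rule are said to be chosen after their values were seen or stand as levels beside a member. The members and lists were chosen with earlier results of these data known. Transcript lengths are those of the longest listed transcript in GENCODE M21, matched for 99.2% of tested genes, and the length trend was a spline with 4 degrees of freedom. Since that annotation and the RefSeq promoter windows (GRCm38.p6) belong to another build than mm8, their coordinates locate the printed sequences only. Python 3.11.15, numpy 2.4.6, pandas 2.3.3 and matplotlib 3.10.9 were used. The result for 1 listed gene is not reported here.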

Additional observations from a re-analysis of the deposited data

How the results depend on the processing

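Of the 5 tested members none was called in any alternative over all 6 libraries, and leaving out 1 library gave 0 to 1 calls, the 1 being Lif without control library 3. Lif, Clcf1, Il6st and Il11ra1 kept a fold change below 0 in all 14 alternatives run for each. Ctf1 was above 0 in 12 of 13, with -0.0086 after correction for transcript length as the exception. The changes of filter, the replicate block and the fit without an intensity trend cannot alter the fold change, so their signs were fixed beforehand. With a pseudocount of 0.1 FPKM the log2 differences of the untested members were larger, 0.49 for Lifr, 0.60 for Osmr, -0.54 for Il11, -0.65 for Il6ra and 0.22 for Il6. At the main pseudocount of 1 FPKM the sign of Il6 turned without YOD1 library 3, to -0.0040.

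Over all tested genes limma called 51 higher and 4 lower. Without a filter it called 0 and 0, with 1411 higher and 2016 lower at an unadjusted p under 0.05. Median-ratio scaling gave 136 and 8, rescaling without rRNA genes 29 and 4, and correction for transcript length 16 and 3. Leaving out 1 library gave 17 to 145 higher and 1 to 97 lower, the upper ends without control library 3. With the replicate number as a block limma called 33 higher and 8 lower. Deviations of same-numbered libraries correlated with r of 0.296, -0.121 and -0.112, so the numbers were not taken as a pairing. The causes of these shifts were not tested. Calls in the gene lists without single libraries, and the length correction of the lists, were added after seeing the data. Depth is unknown, which limits what can be read from members under 1 FPKM.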

Other observations

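Control library 1 stood apart in another set of genes around the family, noticed after their values were seen. Hp, the gene of the haemoglobin-binding protein haptoglobin, stood at 6.26, 12.1 and 10.2 FPKM in YOD1 libraries 1, 2 and 3, against 0.0727, 4.72 and 5.33 FPKM in control libraries 1, 2 and 3. Icam1, a leukocyte adhesion molecule, stood at 1.78, 2.58 and 2.68 FPKM in YOD1 libraries, against 0.265, 1.26 and 1.22 FPKM in control libraries. Serpina3n, a secreted protease inhibitor, stood at 2.44, 5.11 and 4.77 FPKM in YOD1 libraries, against 0.446, 2.08 and 2.32 FPKM in control libraries. Lyz2, a lysozyme gene abundant in macrophages, stood at 10.5, 18.0 and 18.7 FPKM in YOD1 libraries, against 1.47, 8.15 and 9.04 FPKM in control libraries. For these 4 genes, chosen for their values, the groups did not overlap, as in 28.9% of tested genes, control library 1 was the lowest of the 6 and YOD1 library 1 the lowest of its group, and none passed limma (adjusted p from 0.126 to 0.179). Of the other tested leukocyte markers, Cd68 stood at 12.3, 12.9 and 15.3 FPKM in YOD1 libraries, against 19.1, 22.9 and 12.6 FPKM in control libraries 1, 2 and 3 (log2 fold change -0.37, limma adjusted p = 0.307). Cd14 stood at 14.3 to 15.6 FPKM in YOD1 and 10.5 to 15.7 FPKM in control libraries. Csf1r overlapped between the groups at 4.14 to 4.93 FPKM in YOD1 and 3.88 to 4.98 FPKM in control libraries.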
